A study of Mus musculus with 6 samples.

Results

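The genes described here are the mouse zinc finger genes named Zfp plus a number that lie outside 4 regions dense in such genes, on chromosome 2 at 175 to 178.5 Mb, chromosome 4 at 145 to 148 Mb, chromosome 13 at 62 to 68 Mb and chromosome 17 at 21 to 23.5 Mb. They were chosen by symbol and position, without Zfp36, which is an mRNA decay factor of another kind. The rule took 299 of the 52550 listed genes, and 75 further Zfp genes lay inside the 4 regions. The members spread over 20 chromosomes, with 91 of them on chromosome 7, so lying outside the 4 regions does not mean lying alone. Of the 299 members, 262 passed the minimum level of 10 normalized counts, reached by 3 or more libraries. The other 37 were not tested; 16 of these were listed at 0 in every library, and none exceeded 28.5 normalized counts.

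Most Zfp genes encode proteins with tandem C2H2 fingers, each a short fold held by a zinc ion, which together read a DNA sequence. Many also carry a KRAB box, which recruits the corepressor TRIM28 and, through it, the histone methyltransferase SETDB1 and HP1 proteins, so that the bound DNA is packed into silent chromatin. KRAB zinc finger proteins are best known for silencing retroviral elements and for keeping imprints, while members without a KRAB box have varied roles in transcription, RNA handling and ribosomes.

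The DON group (n = 3 libraries) and the Control group (n = 3 libraries) were labelled as γδ T cells from C57BL/6 mouse spleen, T lymphocytes whose antigen receptor is made of γ and δ chains. Both groups were cultured for 3 days with the cytokines IL-23 and IL-1β on anti-CD3 and anti-CD28 plates, which engage the T cell receptor and its costimulation; the DON group also received DON, which the labels do not spell out. Messenger RNA was sequenced. The labels do not tie the 3 libraries of a group to different mice or cultures, so every p-value here rests on library-to-library spread that could be technical. Values are the authors' normalized counts, and recovered totals ran from 33715873 to 40840099 units per library.

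The T cell markers Trdc, Cd3d, Cd3e, Cd3g and Cd247 were all well above the minimum level, and Cd3d was past the threshold, higher in DON. Trgc1, Trgc2 and Trgc4, on the same list of markers, were absent from the genes of the series and could not be read. Markers of other cells were also present, and none was at 0 in all libraries. Of 13 B cell markers, 12 were lower in DON, with summed levels of 49317 to 55868 normalized counts in DON and 70014 to 73309 in Control. Of 9 neutrophil markers 7 were lower, with sums of 2423 to 2869 in DON and 11269 to 11947 in Control. Of 14 macrophage markers 6 were higher and 1 lower, with sums of 37160 to 40978 in DON and 35226 to 36128 in Control. Of 8 erythroid markers 1 was higher, and of 12 mitosis genes 9 were lower, with mitosis sums of 2173 to 2689 in DON and 6222 to 6819 in Control. In bulk RNA, fewer cells of a type and less RNA per cell cannot be told apart, and the part of these shifts in the results below was not tested.

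A minority of members changed with DON, and most of those fell. With limma and Benjamini-Hochberg adjustment over all 17185 tested genes, 17 members were lower (6.49% of 262) and 5 were higher (1.91%), at an adjusted p under 0.05. Over all tested genes the shares were 4.15% lower and 2.3% higher, so the members' share of higher calls lay near the background and their share of lower calls somewhat above it. Leaving out any 1 of the 3 Control libraries or of DON libraries 2 and 3 left 5 to 8 members lower and none higher, while 62 were lower and 9 higher without DON library 1. The median log2 change of the tested members was -0.05, against 0.00 for all tested genes. Of the 62 tested Zfp genes inside the 4 regions, 29 were lower (46.8%) and none higher, with a median of -1.53. Their longest transcripts had a median of 38.7% G and C, against 46.2% in the tested members. The 35 tested members at or below 40% had 16 lower (45.7%) and a median of -1.03. The difference between members and Zfp genes of the 4 regions was not tested. At an unadjusted p under 0.05 the members had 71 genes (27.1%) in both directions together, and all tested genes 4377 (25.5%).

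**Figure D1:**
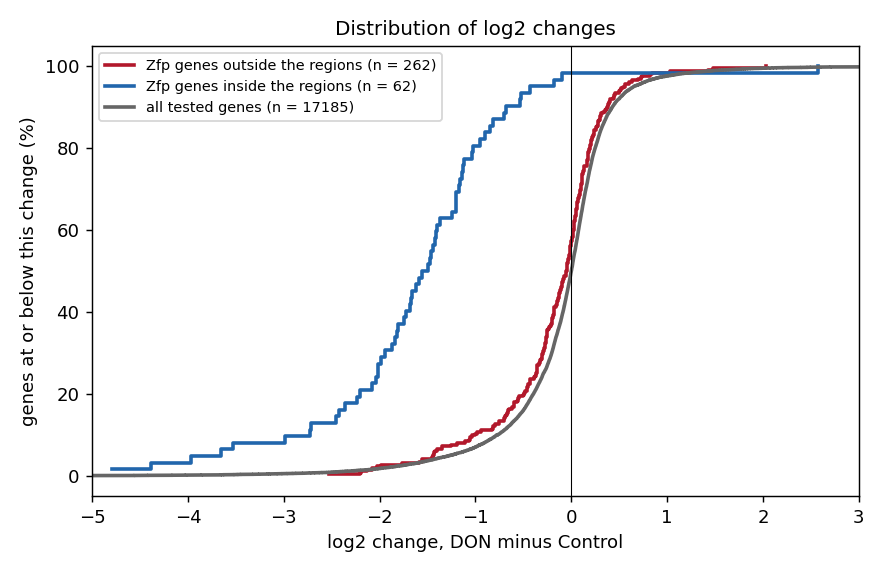
Cumulative share of genes (vertical axis, percent) at or below each log2 change, DON minus Control (horizontal axis), for Zfp genes outside the 4 regions, Zfp genes inside them and all tested genes. The curve of the members lies close to that of all genes and mostly slightly to its left, while the median of the Zfp genes inside the regions is at -1.53.

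The deepest decreases were in KRAB zinc finger genes. Zfp958, on chromosome 8 at 4613167 to 4630231 (GRCm38, plus strand), had 196, 161 and 138 normalized counts in DON libraries 1 to 3, against 531, 700.1 and 734 in Control libraries 1 to 3. The groups did not overlap, and the log2 change was -1.99 (SE 0.19, limma adjusted p = 0.0017). Zfp959, on chromosome 17, had 305, 277 and 326 in DON, against 872, 836 and 779 in Control. All 3 DON libraries lay at a like low level, with a log2 change of -1.45 (SE 0.11, limma adjusted p = 0.00081), the smallest adjusted p among the members.

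Zfp938 on chromosome 10 had 104, 56.2 and 61.8 normalized counts in DON and 305, 281 and 297 in Control. Zfp930 on chromosome 8 had 175, 202 and 103 in DON and 579.7, 687 and 706 in Control. Their log2 changes were -2.03 (SE 0.25) and -2.08 (SE 0.25), with limma adjusted p of 0.0052 and 0.0046. In both genes every DON library was below every Control library by a wide margin.

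Zfp97 and Zfp960 lie beside each other on chromosome 17 at about 17 Mb, outside the excluded stretch of that chromosome. Zfp97 had 158, 74.0 and 83.1 in DON and 425, 514 and 450.2 in Control (log2 change -2.21, SE 0.28, limma adjusted p = 0.0059). Zfp960 had 53.6, 12.5 and 20.3 in DON and 139, 181 and 118 in Control (log2 change -2.53, SE 0.50, limma adjusted p = 0.029). The transcripts of these 2 genes cover each other over 98.9% to 99.6% at 95% identity or more, so reads may be shared between them and the 2 calls may not be independent; how reads were assigned was not tested.

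Zfp932 is known in mouse to bind and silence a class of endogenous retroviruses. It had 382, 226 and 197 normalized counts in DON and 763, 757 and 751 in Control, a log2 change of -1.56 (SE 0.23, limma adjusted p = 0.011). The Control libraries were within a narrow range, and DON library 1 was the highest of the DON libraries. Another listed gene, Gm15446, covers 70.1% of its transcript at that identity, so part of its reads may be shared.

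Zfp442, Zfp72, Zfp975, Zfp825 and Zfp800 were the other members named by the rule. Zfp442 averaged 18.9 ± 11.5 in DON and 81.8 ± 19.6 in Control (SD, n = 3 each). Zfp72, whose coding sequence holds no KRAB box, had 68.9, 43.7 and 29.4 in DON and 160.3, 124 and 186 in Control. Zfp975 averaged 37.8 ± 2.94 in DON and 119 ± 42.6 in Control, and Zfp825 averaged 237 ± 107 in DON and 537 ± 74.2 in Control. Zfp800, which also has no KRAB box, had 866, 655 and 662 in DON and 1419, 2073 and 1276 in Control, with a log2 change of -1.11 (SE 0.20, limma adjusted p = 0.021). Zfp976, Zfp81, Zfp709, Zfp26 and Zfp182 were also lower; they are named after their values were seen. The log2 changes of all 17 ran from -2.53 to -0.66, and in each of them every DON library was below every Control library, which the naming rule required of 12. Over all 262 tested members, DON lay wholly below Control in 43 (16.4%) and wholly above in 26 (9.92%), against 15.7% and 15.7% of all tested genes.

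The 5 members that rose changed less. Zfp661, a KRAB gene on chromosome 2, had 351, 517 and 368 normalized counts in DON and 169, 212 and 218 in Control, a log2 change of 1.03 (SE 0.19, limma adjusted p = 0.024). Zfp511, Zfp692, Zfp287 and Zfp865 rose by 0.43, 0.41, 0.40 and 0.30 on the log2 scale, with adjusted p between 0.027 and 0.049. Zfp865 had 4622, 4397 and 4799 in DON and 3788, 3706 and 3757 in Control. Its exons overlap Zfp784 on the other strand over 20.7% of its exonic length, and Zfp511 overlaps Tubgcp2 likewise over 9.95%; the sources used here do not say whether counting kept strand, so reads there cannot be assigned.

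**Figure D2:**
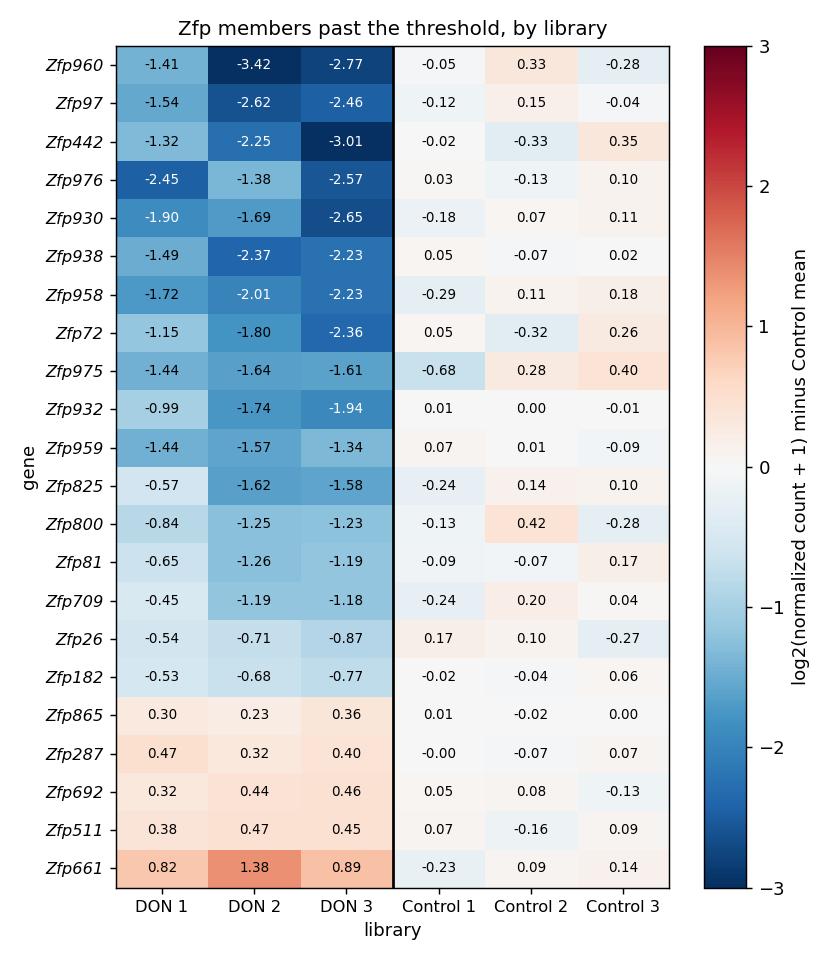
Each cell is the log2(normalized count + 1) of 1 library minus the mean of the 3 Control libraries, for the 22 members past the threshold, with DON libraries on the left and Control libraries on the right. Zfp960 is at the top with -3.42 in DON library 2, and the 5 genes at the bottom are higher in all DON libraries.

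Members with a KRAB box made up most of those that fell. Of 126 tested members with a KRAB box in their coding sequence, 15 were lower (11.9%) and 2 higher (1.59%). Their median log2 change was -0.16. Of 133 without one, 2 were lower (1.5%) and 3 higher (2.26%), with a median of -0.01. The shares of all tested genes were 4.15% lower and 2.3% higher. Median G and C content was 43.6% with a KRAB box and 49.97% without. All tested genes from 40% to 45% G and C also had a median log2 change of -0.16. By number of fingers, 11 of 101 members with 12 or more were lower (10.9%) and 6 of 104 with 6 to 11 (5.77%). None of 54 with 0 to 5 was lower. After the GC correction described next, these counts were 7, 8 and 1, without that order, and the lower KRAB members numbered 11 and those without a KRAB box 5; none of these differences was tested. The 17 that fell had 6 to 22 fingers (median 13).

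The members that fell also shared a low GC content. Their longest transcripts held 36.7% to 40.3% G and C, against 46.4% to 57.9% for the 5 that rose. Over all tested genes the log2 change also moved with GC: genes at or below 40% had a median of -0.51 (185 of 1133 lower), those from 40% to 45% -0.16, those from 45% to 50% 0.02 and those above 50% 0.07. At or below 40%, 23 KRAB members had a median of -1.45 with 14 lower, and 11 members without a KRAB box had a median of -0.60 with 2 lower. Above 40% the medians with and without a KRAB box lay close together. They were -0.20 and -0.15 from 40% to 45%, 0.12 and 0.06 from 45% to 50%, and 0.06 and 0.06 above 50%. Across the 262 tested members the log2 change and GC content had a Pearson r of 0.42 and a Spearman rho of 0.51, given as a description across genes of the same 6 libraries.

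After each library's GC trend was removed, 13 of the 17 still passed as lower and 3 of the 5 as higher. In all, 16 members were then lower and 4 higher, against 5.02% and 3.47% of all tested genes. The medians moved to -0.03 for KRAB members and 0.02 for those without. At or below 40% GC, the 23 KRAB members kept a median of -0.98 and the 11 without a KRAB box had -0.21. Zfp26 and Zfp182 lost the call (adjusted p of 0.10 and 0.22 with limma), as did Zfp975 and Zfp976, and Zfp865 and Zfp692 among those that rose. Whether the GC relation is technical was not tested.

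**Figure D3:**
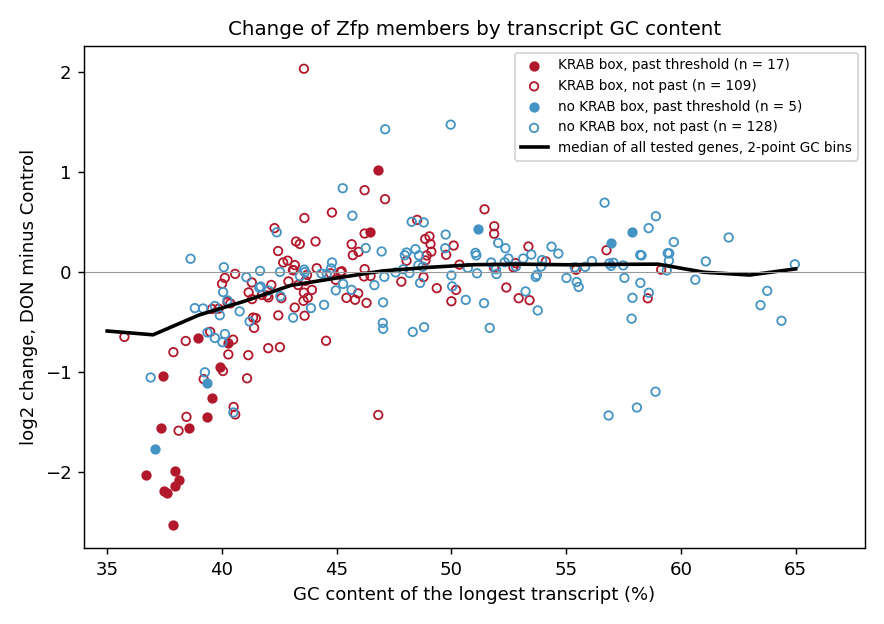
Log2 change, DON minus Control, against the GC content of the longest transcript (percent) for tested members with and without a KRAB box; filled points passed the threshold and the line is the median of all tested genes. Filled points below 0 all sit at 40.3% GC or less, most of them under the line.

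The promoters of several members that fell hold a shared stretch, printed here because it recurs in genes on 7 chromosomes. Promoters are RefSeq's on GRCm38.p6, from 250 bases before to 50 after the start, and 242 members had one. The stretch is NNNNNNNNGNNTNNNTNNCCAATCA, read from 9 of the 14 lower members with a promoter, where N is any base and the end is a CCAAT box, an element bound by the factor NF-Y. It was noticed in these promoters after known short motifs and other forms of the stretch had been looked at, so its share among the lower members follows from how it was found. Capitals mark its fixed letters.
Zfp97 (chr17:17121260-17121319, plus strand): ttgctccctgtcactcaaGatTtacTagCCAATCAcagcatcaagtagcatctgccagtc
Zfp442 (chr2:150451541-150451600, minus strand): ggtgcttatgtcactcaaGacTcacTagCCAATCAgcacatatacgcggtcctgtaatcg
Zfp976 (chr7:42642625-42642684, minus strand): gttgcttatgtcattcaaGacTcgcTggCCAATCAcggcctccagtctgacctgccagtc
Zfp938 (chr10:82241314-82241373, minus strand): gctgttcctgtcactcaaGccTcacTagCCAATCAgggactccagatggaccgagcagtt
Zfp958 (chr8:4613077-4613136, plus strand): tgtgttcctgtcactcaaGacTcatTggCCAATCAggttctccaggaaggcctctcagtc
Zfp975 (chr7:42692799-42692858, minus strand): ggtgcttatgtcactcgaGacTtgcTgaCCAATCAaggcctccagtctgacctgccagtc
Zfp932 (chr5:109996427-109996486, plus strand): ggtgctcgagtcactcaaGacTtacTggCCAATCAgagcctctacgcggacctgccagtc
Zfp959 (chr17:55891984-55892043, plus strand): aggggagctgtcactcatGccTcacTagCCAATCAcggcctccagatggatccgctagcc
Zfp825 (chr13:74493993-74494052, minus strand): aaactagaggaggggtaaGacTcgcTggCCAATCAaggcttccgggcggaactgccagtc
Zfp937 (chr2:150218012-150218071, plus strand): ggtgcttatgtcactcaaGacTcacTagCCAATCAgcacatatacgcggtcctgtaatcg
Zfp866 (chr8:69774942-69775001, minus strand): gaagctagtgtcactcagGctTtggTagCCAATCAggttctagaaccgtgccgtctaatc
Zfp442 and Zfp937, a KRAB gene some distance away on chromosome 2, have the same 60 bases here. Likeness beyond the fixed letters varied among the printed promoters. Of the 60 bases, Zfp975 and Zfp976 share 54, Zfp932 and Zfp975 share 48, and Zfp442 and Zfp825 share 29. The printed promoters may therefore not be independent cases, and whether they are copies of one another was not tested. The stretch, searched on both strands, is in 161 of 32851 promoters (0.49%), and CCAAT alone is in 37.4%.

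Beyond the 9 genes it was read from, the stretch is in 12 more members, of which Zfp977 was listed at 0 in every library and 11 were tested. Every carrier past the threshold was among the 9, so the 11 are by construction carriers that were not called. Of the 11, 10 had a log2 change below 0, with a median of -0.65 before and -0.22 after GC correction. The 190 tested members that were not called lower and lack the stretch had medians of -0.02 and 0.02. The 11 and the 190 were not matched for a KRAB box or GC content, and the difference between them was not tested. Zfp937 had 49.7, 8.92 and 32.4 normalized counts in DON and 48.9, 83.4 and 75.9 in Control, so DON library 1 lay within the Control range. Zfp866 had 3286, 2485 and 2676 in DON and 3066, 2862 and 2717 in Control, with a log2 change of -0.04 (95% interval -0.30 to 0.22). Of 61 Zfp genes of the 4 regions with a promoter, 12 hold the stretch (19.7%), against 8.68% of members with a promoter. The 11 of these carriers that were tested had 2 lower and a median of -2.21. The 41 tested Zfp genes of the 4 regions without the stretch had 21 lower and a median of -1.41. Lower calls thus did not follow the stretch in those regions. Among genes that are neither members nor Zfp genes of the 4 regions, 51 with the stretch were tested. Of these, 17 were lower and none higher, with a median of -0.97, or -0.48 after GC correction. Without the stretch, 434 of 10601 such tested genes were lower and 278 higher, with a median of 0.01, or 0.00 after GC correction. Genes with other names inside the 4 regions were not left out here. Of the 111 such genes with the stretch, 63 carry only a predicted-gene name, and shared reads between near copies were not examined for them. A stricter form, read from 8 of the lower members and with 15 fixed letters in place of 10, is in 12 members; all 8 of its lower carriers are those it was read from, and the 3 other tested carriers had a median of -0.80. The last 7 letters alone are in 55 members. Of the 50 tested, 10 were lower and 1 higher, with a median of -0.46. Of 1200 tested genes with these letters that are neither members nor Zfp genes of the 4 regions, 74 were lower and 31 higher. The median of those 1200 genes was -0.003. The 7 letters were also taken from lower members. Both forms were run after the data were seen.

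**Figure D4:**
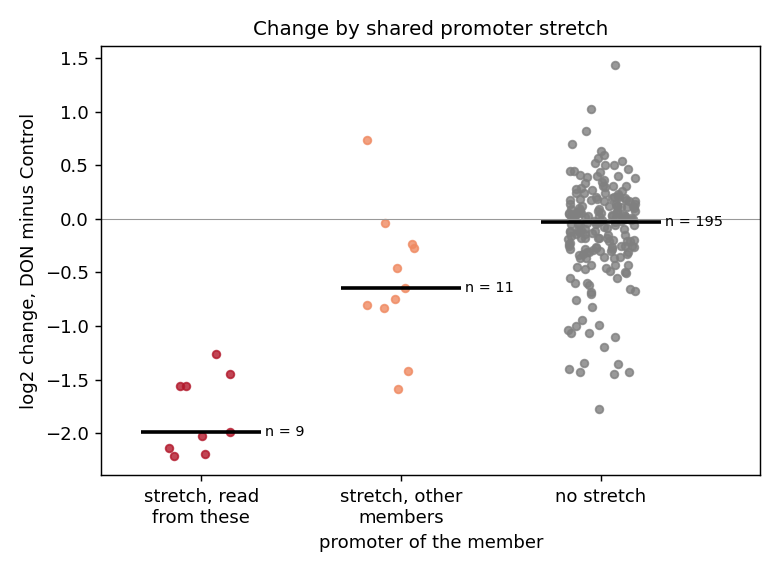
Log2 change, DON minus Control, of tested members by promoter: the 9 lower members the stretch was read from, 11 others with it and 195 without; bars are medians. The first set is low because it was chosen so; the second has a median of -0.65 and the third, which includes 5 lower members, -0.03.

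DON libraries differed among themselves in how many members lay outside the Control range. Against all 3 Control libraries, DON library 1 had 72 of 262 members below and 82 above, library 2 had 124 below and 71 above, and library 3 had 119 below and 73 above. Over all tested genes, the shares below were 31.5%, 34.4% and 34.8%, and those above 31.2%, 35% and 34.1%. Among KRAB members the median difference from the Control mean was 0.05, -0.27 and -0.26 in DON libraries 1 to 3, while it was -0.00, -0.02 and 0.01 in members without a KRAB box. After GC correction the KRAB medians were 0.06, -0.13 and -0.11. Low-GC genes at large split likewise before that correction. All tested genes at or below 40% GC had medians of -0.10, -0.69 and -0.70 in DON libraries 1 to 3. Those from 40% to 45% had 0.02, -0.22 and -0.23. In 35 members (13.4%), DON libraries 2 and 3 lay more than 0.5 on the log2 scale below the Control mean while DON library 1 was within 0.5 of it, against 6.08% of all tested genes. In all 3 DON libraries, 20 members (7.63%) lay more than 0.5 below, against 5.84% of all tested genes.

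Zfp386, Zfp654 and Zfp617 show this split, and are named after their values were seen. Zfp386 had 3583, 1009 and 910 normalized counts in DON and 3467, 4319 and 3620.0 in Control. Zfp654 had 3101, 1173 and 1126 in DON and 3125, 3363 and 3479.5 in Control. Zfp617 had 1259, 467 and 442 in DON and 1329, 1405 and 1266 in Control. In each gene DON library 1 stood at or near the Control level and the other DON libraries far below it, and none passed the threshold with all libraries (limma adjusted p of 0.12, 0.11 and 0.12). Without DON library 1, 62 members were lower and 9 higher, with all 17 and all 5 among them, against 12.3% and 6.51% of all tested genes. With only DON library 1 kept, 6 members were lower and none higher, against 1.73% and 0.355% of all genes.

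**Figure D5:**
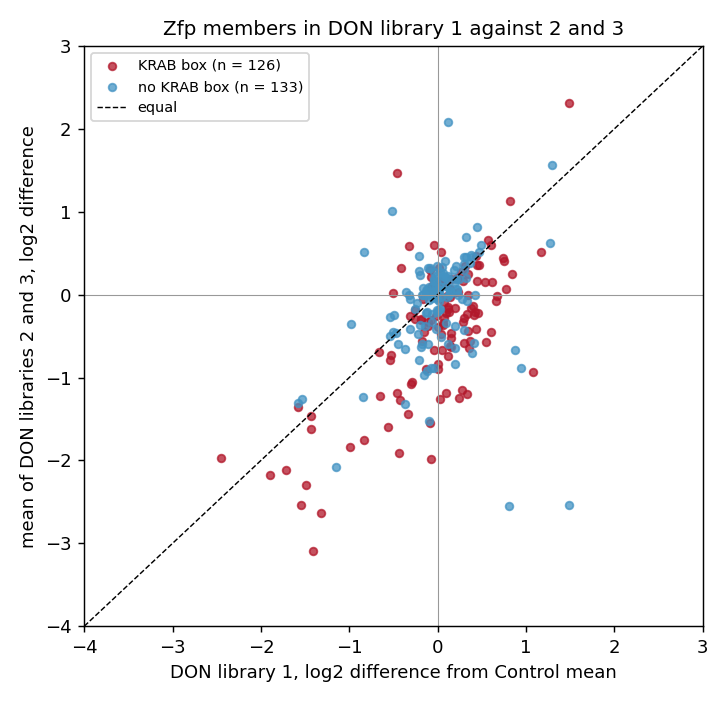
Each point is a tested member; the horizontal axis is the log2 difference of DON library 1 from the Control mean and the vertical axis the mean difference of DON libraries 2 and 3. A group of points, many of them with a KRAB box, lies near 0 on the horizontal axis and below 0 on the vertical one.

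Members with known roles mostly did not pass the threshold. Of the 42 genes listed for their role, 40 were members, 35 were tested and 1, Zfp932, passed. Most genes of any kind did not pass: the share past the threshold in either direction was 6.45% of all tested genes and 8.4% of tested members. Among silencing factors, Zfp809, which represses murine leukaemia proviruses, had 3094, 1919 and 2088 in DON and 2115, 2566 and 2272 in Control (log2 change 0.00, 95% interval -0.40 to 0.41). Zfp445, which protects imprints, had 10129, 6449 and 6737 in DON and 8217, 8946 and 7800 in Control (log2 change -0.13, interval -0.50 to 0.25). In both genes DON library 1 was the highest of all 6. Zfp57, also an imprint factor, Zfp819, Zfp42, Zfp423 and Zfp521 were below the minimum level and were not tested.

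Known regulators of transcription without a KRAB box did not pass either. Zfp281, a factor known from stem cells, had 6242, 4612 and 4751 in DON and 6712, 7317 and 7163 in Control, and its log2 change was -0.45 (limma adjusted p = 0.060, 95% interval -0.72 to -0.18). Zfp148, its close relative, had 4854, 3438 and 3478 in DON and 5180.1, 5538 and 4947 in Control, with a log2 change of -0.43 (limma adjusted p = 0.097). The groups did not overlap in either gene, and neither passed the threshold. Zfp131 had 2243, 1051 and 1581 in DON and 2497, 2837 and 2065 in Control, where the groups overlapped (adjusted p = 0.16 with limma). Zfp143 and Zfp335, factors of housekeeping promoters, had changes of 0.04 and 0.02, and Zfp384 had 0.14.

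Per kb of transcript, the highest mean levels were those of Zfp207, a spindle assembly factor, at 2690 normalized counts per kb, Zfp740 at 1576, Zfp146 at 1405, Zfp592 at 1391, Zfp91 at 1374 and Zfp809 at 1301. Zfp207 had 9211, 8316 and 7654 in DON and 8764, 9368 and 9604 in Control, a log2 change of -0.14 (interval -0.33 to 0.04). Of these only Zfp146 had a change beyond 0.2 in size, at 0.50 (adjusted p = 0.14 with limma, interval 0.08 to 0.92). The members with the narrowest intervals were Zfp217 (log2 change 0.10, interval -0.03 to 0.23), Zfp592 (0.03, -0.11 to 0.17), Zfp831 (-0.01, -0.16 to 0.14) and Zfp236 (0.04, -0.11 to 0.20). For these 4 genes, a change of more than 0.23 on the log2 scale lay outside the interval.

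No tested factor of ribosomes passed the threshold. Zfp598, a sensor of collided ribosomes, had a log2 change of 0.19 (interval -0.04 to 0.42), Zfp622, which acts on the large ribosomal subunit, one of 0.00 (-0.19 to 0.19) and Zfp593 one of 0.09 (-0.25 to 0.42). Zfp318, needed for IgD in B cells, had -0.18 (-0.38 to 0.02). Zfp292 was uneven within groups, with 2882, 6268 and 1930.0 in DON and 3340, 14425 and 13375 in Control. Zfp568, a silencer of the early embryo, had 1169, 1168 and 472 in DON and 1272, 329 and 335 in Control, so that the groups overlap. Zfp683, known as Hobit, a factor of tissue-resident T cells, had 14.3, 16.9 and 13.2 in DON and 27.4, 17.6 and 18.5 in Control (limma adjusted p = 0.54). The other tested role genes, Zfp35, Zfp105, Zfp263, Zfp296, Zfp326, Zfp330, Zfp407, Zfp451, Zfp462, Zfp503, Zfp532, Zfp608, Zfp609, Zfp687 and Zfp703, had log2 changes from -1.19 in Zfp503 to 1.43 in Zfp105. Both of these have at least 1 library at 0, and none of the genes in this group passed.

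Genes listed for the TRIM28 corepressor pathway mostly did not pass, as held for tested genes at large. Of 31 tested corepressor genes, 3 were lower (9.68%) and none higher, with a median log2 change of -0.12. Over all tested genes 4.15% were lower and 2.3% higher, and the difference was not tested. Trim28 averaged 8101 ± 776 in DON and 7757 ± 674 in Control, and Setdb1 3495 ± 66.7 in DON and 3352 ± 91.9 in Control (SD, n = 3 each); neither passed. The 3 that fell were Uhrf1, which reads hemimethylated DNA, Hells, a chromatin remodeller, and 2810474O19Rik, and they are named after their values were seen. Uhrf1 averaged 290.0 ± 41.5 in DON and 822 ± 49.8 in Control (log2 change -1.51, SE 0.13, limma adjusted p = 0.0013). Hells averaged 213 ± 132 in DON and 758 ± 122 in Control (log2 change -1.98, SE 0.37, limma adjusted p = 0.024). The 2810474O19Rik gene averaged 2311 ± 298 in DON and 7289 ± 1023 in Control (log2 change -1.65, SE 0.13, limma adjusted p = 0.00081). None of 38 tested Zbtb genes passed and 1 of 19 tested Zscan and Zkscan genes did, Zkscan1 at a log2 change of -0.47.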

How the data were processed

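Messenger RNA libraries were sequenced from 3 DON and 3 Control samples. Per the submitters' processing notes, the tools were HISAT2 and StringTie and the builds mm10 and mm8, with no role or version given. Per the file headers, the deposited values are normalized counts, a signal per gene that the authors divided by 1 factor per library; all values (100%, tolerance 0.001) were whole multiples of a library step, which gave recovered units for the edgeR and DESeq2 alternatives. A unit need not be 1 read, since more genes sat at 4 units than at 3 or 5. Coordinates are those of the files; 275 of 299 members matched GENCODE M21, on GRCm38.

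The main test was limma 3.58.1 in R 4.3.3 (variance trend, two-sided) on log2(value + 1), with at least 10 normalized counts in at least 3 libraries, genes sharing a symbol summed, and Benjamini-Hochberg adjustment over 17185 genes. Changes of low genes are understated on that scale. Alternatives used other pseudocounts, filters and scalings, edgeR 4.0.16, DESeq2 1.42.0, GC correction (robust loess, span 0.5, longest GENCODE transcript), and libraries left out. The fit was also run on simulated counts with the same dispersion (spread beyond counting noise) for every gene. Those counts had no GC trend and no library that stood apart, so that run cannot show how the fit handles either. Near copies were found with BLAST 2.17.0.

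The KRAB class was planned from RefSeq proteins, which were not used here; translated GENCODE coding sequences were scored instead at 18 conserved positions of the box. The 13 matches required were set after the scores, though not the expression values, had been seen, in place of simpler patterns tried first. The promoter stretch was found after the calls were known and is a description only. Members and lists were chosen with earlier results of these data known. In each direction, named members were the 12 largest changes past the threshold with non-overlapping groups and a mean of at least 50 in the higher group; added were the 6 highest per kb, the role list, and the 4 narrowest intervals not past the threshold.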

Additional observations from a re-analysis of the deposited data

How the results depend on the processing

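The reported fit called 1108 genes over all tested, 17 members lower and 5 higher. Those 3 counts, in that order, were 703, 10 and 2 with no filter, 363, 6 and 0 with no variance trend, 2134, 32 and 8 with DESeq2, and 382, 14 and 1 with a log2 threshold of 1. With only DON library 1, 2 or 3 kept they were 358, 6 and 0, then 1807, 46 and 2, then 1824, 41 and 1, and with GC correction on DON library 1 alone 438, 6 and 0. A lone library was assumed to vary like the others. Leaving out 1 library gave 260 to 3237 genes, 5 to 62 members lower and 0 to 9 higher, with both maxima without DON library 1. Libraries of the same replicate number did not deviate together from their group means (correlations across genes of -0.056, -0.054 and -0.052). These values do not show whether such libraries shared a mouse or culture. With the replicate block the counts were 288, 7 and 0, and with the block and GC correction 517, 6 and 2.

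Counts of other gene groups moved likewise. Zfp genes of the 4 regions past the threshold, 29 as reported, numbered 13 with no variance trend, 14 with the replicate block, 15 with the block and GC correction, 11, 50 and 48 with only DON library 1, 2 or 3, 11 with GC correction on DON library 1, and 11 to 55 with 1 library left out. Corepressors, 3 as reported, numbered 5 with GC correction, 9 and 10 with only DON library 2 or 3, 6 with DESeq2 and 2 to 12 with 1 library left out. Zbtb genes, 0 as reported, numbered 2 with GC correction, 1 with a pseudocount of 10, a minimum of 50, equal totals or only DON library 1 (with or without GC correction), 4 and 5 with only DON library 2 or 3, 3 with DESeq2, and 0 to 9 with 1 left out. Zscan and Zkscan genes, 1 as reported, numbered 0 with no filter, a minimum of 1, no variance trend, the block (with or without GC correction), a log2 threshold of 1 or only DON library 1 (with or without GC correction), 2 with only DON library 2 or 3, and 0 to 2 with 1 left out.

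The median of members was 0.0164 with GC correction on DON library 1 alone. Counted as at least 0.5 from the Control mean, members lower were 30, 82 and 74 in DON libraries 1 to 3, and higher 23, 24 and 19. Lower members without a KRAB box numbered 5 with GC correction, and members with under 12 fingers that were lower numbered 6. No named member past the threshold reversed in any alternative; edgeR called 15 of the 17 and 4 of the 5. The causes were not tested.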
